A study of Mus musculus with 12 samples.

Results

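The genes described here encode subunits of the transcription factor NF-kB and the proteins that hold it back. They are Nfkb1, Nfkb2, Rel and Relb among the subunits, the inhibitors Nfkbia, Nfkbib and Nfkbie, the nuclear regulators Nfkbiz and Bcl3, and Tnfaip3, which encodes the ubiquitin-editing protein A20. Members were taken by gene symbol from the probe annotation, and the probe set with the highest mean over the 12 arrays stood for a gene. Of the 10 listed genes 9 had a probe set under their symbol, with 1 probe set each, out of 22206 probe sets tested. Nfkb1, the gene of p105 and p50, was not analysed here. RNA came from alveolar macrophages of male C57 Black mice, sorted from the lungs on magnetic beads that carried an antibody to Siglec-F. The groups were an intact liver and days 1, 3 and 7 after removal of 70% of the liver, with 3 biological replicates each and 1 Clariom S mouse array per replicate. The control animals had an intact liver, and no sham operation is named, so resection and surgery as such cannot be told apart. The labels do not say whether a replicate was 1 mouse or a pool, so p-values rest on the spread between samples within the groups.

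In resting macrophages NF-kB dimers are kept in the cytoplasm by inhibitors of the IkB family. Signals from Toll-like receptors or from the receptors of TNF and IL-1 activate a kinase complex that marks the inhibitor for destruction, and the dimer enters the nucleus. Several of the induced genes encode brakes on the pathway itself, above all Nfkbia and Tnfaip3, so their transcripts are known as feedback readouts of NF-kB activity. Alveolar macrophages live on the airway surface, where these brakes limit inflammation against inhaled material. Transcript levels do not measure the protein, its place in the cell or its binding to DNA.

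Promoter sequences from RefSeq (GRCm38.p6, 250 bases before to 50 bases after a start site, 5′ to 3′ on the gene's strand) were at hand for 7 of the 10 genes, in 10 windows. They are shown because several of these genes are themselves known targets of NF-kB. The κB consensus, read on both strands, was found in 8 of the 10 windows, of which 2 of Nfkb2 overlap and share a match. The consensus was present in 4.51% of 32851 promoter windows of the same length, and the broader form GGGNNNNNCC, which contains it, in 50.8%. The members were picked as NF-kB genes, so this difference is a description. Windows of the feedback inhibitors Nfkbia and Tnfaip3, of Rel, and of Nfkbib, which held no match, are given here with matches in capitals. They lie at chr12:55492598-55492897, chr10:19015361-19015660, chr11:23770920-23771219 and chr7:28766595-28766894, all on the minus strand.
Nfkbia: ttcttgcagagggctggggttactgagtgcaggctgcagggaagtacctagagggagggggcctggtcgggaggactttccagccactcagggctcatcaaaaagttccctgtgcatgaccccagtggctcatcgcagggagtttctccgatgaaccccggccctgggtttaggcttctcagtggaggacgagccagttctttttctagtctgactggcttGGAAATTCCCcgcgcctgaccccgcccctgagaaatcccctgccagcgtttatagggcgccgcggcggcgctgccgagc
Tnfaip3: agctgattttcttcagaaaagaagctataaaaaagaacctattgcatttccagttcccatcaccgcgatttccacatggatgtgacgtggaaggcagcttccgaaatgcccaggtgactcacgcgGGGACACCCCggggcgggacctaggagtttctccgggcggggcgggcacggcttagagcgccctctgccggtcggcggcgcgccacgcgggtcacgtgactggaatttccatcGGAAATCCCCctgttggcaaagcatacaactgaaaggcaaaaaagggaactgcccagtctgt
Rel: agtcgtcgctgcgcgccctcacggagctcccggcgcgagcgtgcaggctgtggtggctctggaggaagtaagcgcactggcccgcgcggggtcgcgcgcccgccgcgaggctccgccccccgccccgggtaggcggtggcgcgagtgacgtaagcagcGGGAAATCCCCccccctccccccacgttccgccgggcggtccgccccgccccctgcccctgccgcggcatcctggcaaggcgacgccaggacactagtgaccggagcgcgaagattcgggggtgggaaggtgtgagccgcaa
Nfkbib: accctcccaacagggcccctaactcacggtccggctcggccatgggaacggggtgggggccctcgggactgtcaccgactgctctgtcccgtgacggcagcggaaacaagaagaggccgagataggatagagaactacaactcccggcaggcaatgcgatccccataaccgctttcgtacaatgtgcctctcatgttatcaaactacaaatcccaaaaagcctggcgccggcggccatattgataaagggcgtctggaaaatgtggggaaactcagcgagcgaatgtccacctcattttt
Counted from the start site, with negative positions before it, the match in Nfkbia began at -29 and the 2 matches in Tnfaip3 at -125 and -12. The Rel window held 2 overlapping matches, at -92 and -91. Absence of a match says only that these letters are not in this window.

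The arrays carried the label of the sort. The mean of 11 alveolar macrophage markers lay between 9.16 and 9.94 (log2) on the 12 arrays, and the group means of all 11 were above background, taken as the 95% point of the intron control probe sets averaged over arrays (5.30). The replicates of day 1 were not alike. Day 1 replicate 2 separated exon from intron control probe sets least of all arrays, with an area under the curve of 0.809, against 0.832 to 0.888 on the other 11. Day 3 replicate 1 (0.832) and day 7 replicate 2 (0.837) came next, and these 3 are drawn as open points in the plot of values by array. All values below are log2 signals as deposited, and the number of arrays limits their precision.

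Transcripts of the NF-kB subunits and inhibitors were close to their intact levels on most arrays at all 3 times. In limma 0 of the 9 members passed an adjusted p of 0.05 at day 1, where 0% of all probe sets passed, at day 3, where 0.0045% passed, or at day 7, where 0.018% passed. Without adjustment the threshold of 0.05 was met by 1 member at day 1 (Rel), 0 at day 3 and 0 at day 7, and by 8.94%, 4.46% and 5.70% of all probe sets. The F test over the 4 groups called 0 members and 0.00901% of probe sets. Of the 9 members 7 were lower and 2 higher at day 1 (median -0.33, against -0.011 for all probe sets), 8 lower and 1 higher at day 3 (median -0.20, against 0.0015), and 4 lower and 5 higher at day 7 (median 0.029, against -0.0091). Only 5762 of the 22206 probe sets averaged above background in a group, as did every member but Relb. The medians of all probe sets thus come mostly from dimmer signals than those of the members. The 3 comparisons share the intact arrays. Median centring turned the sign of Nfkbia and Nfkbib at day 7, and quantile normalization that of Nfkbiz at day 1 and Nfkbib at day 7, all small differences. The day 1 median of the members was -0.20 after quantile normalization and turned to 0.11 without day 1 replicate 2. In sorted cells measured in bulk, fewer cells that express a gene and less RNA per cell cannot be told apart.

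**Figure D1:**
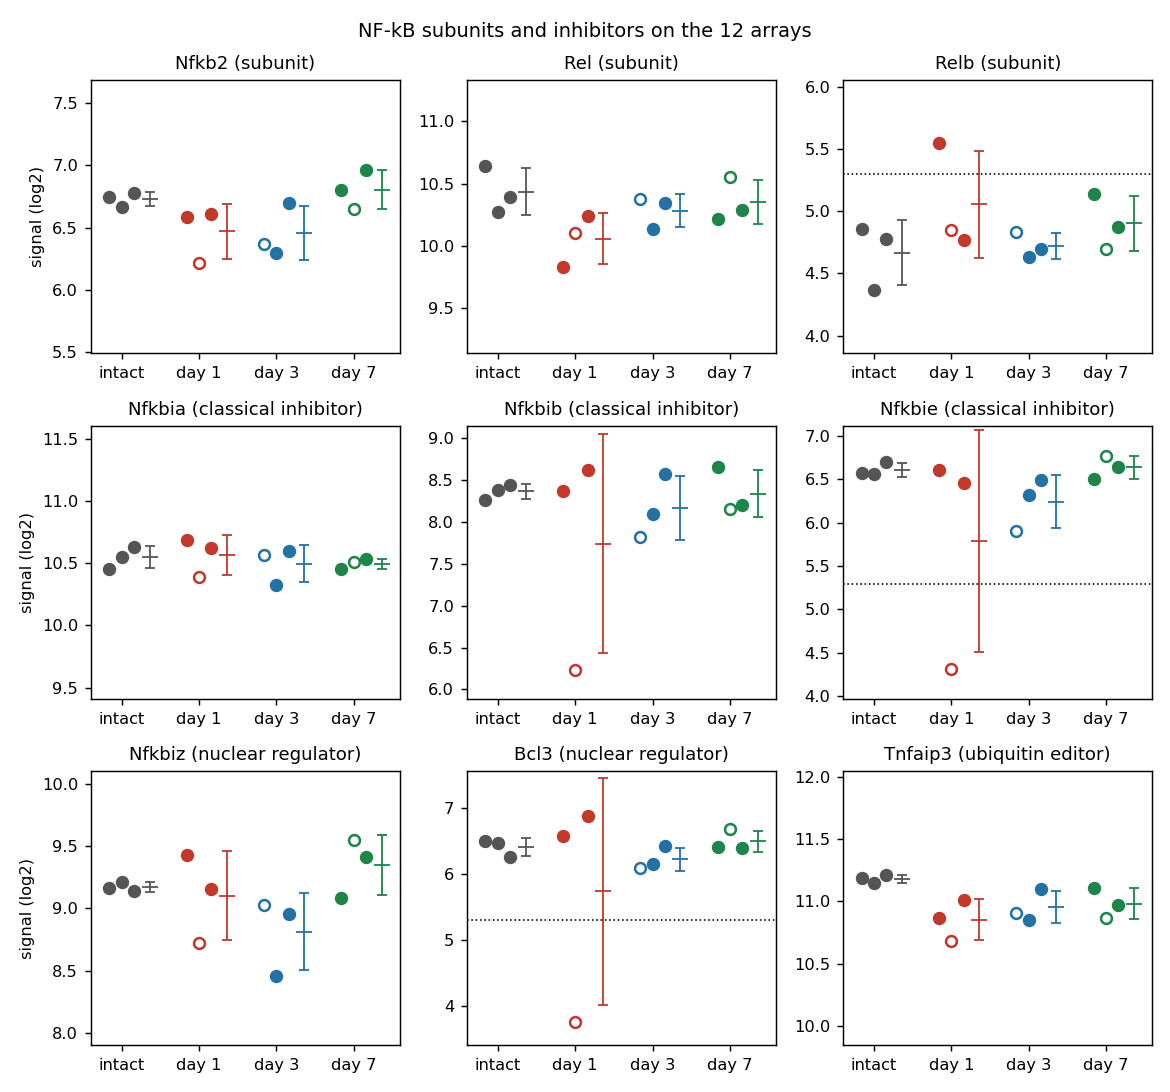
Signals (log2, vertical axes) of the 9 members on the 3 arrays of each group, with mean and SD (n = 3) beside the points. Open points are the 3 arrays of weakest control separation and the dotted line is background (5.30). Bcl3, Nfkbie and Nfkbib drop on day 1 replicate 2 alone, to 3.75, 4.32 and 6.24, while Nfkbia stays between 10.33 and 10.69 on all arrays.

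Among the subunits, Rel encodes c-Rel, which is known for cytokine induction in macrophages and lymphocytes. Rel was the only member below the unadjusted threshold at day 1, and narrowly so (limma unadjusted p = 0.0499). Tnfaip3 came next, just above that threshold (limma unadjusted p = 0.0520). On the intact arrays Rel had 10.64, 10.27 and 10.39, at day 1 it had 9.83, 10.10 and 10.24, at day 3 it had 10.37, 10.13 and 10.34, and at day 7 it had 10.21, 10.55 and 10.29. All 3 day 1 arrays lay below the 3 intact ones, and the later days overlapped the intact range. The difference of day 1 from intact was -0.38 ± 0.17 (log2 ± SE, n = 3 per group, limma adjusted p = 0.559). Without day 1 replicate 2 the difference was -0.40 ± 0.19, with a 95% interval from -0.82 to 0.017. At day 3 the difference was -0.15 ± 0.17 and at day 7 -0.082 ± 0.17.

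Nfkb2 encodes p100, which is processed to p52 in the non-canonical branch of the pathway. It had 6.75, 6.67 and 6.78 on the intact arrays, 6.59, 6.22 and 6.61 at day 1, 6.37, 6.30 and 6.70 at day 3, and 6.81, 6.65 and 6.96 at day 7. The day 1 arrays lay below the intact ones, day 3 overlapped them through replicate 3, and day 7 spanned them. The differences were -0.26 ± 0.17 at day 1, -0.28 ± 0.17 at day 3 and 0.073 ± 0.17 at day 7, with limma adjusted p-values of 0.656, 1.00 and 1.00. Relb, the usual partner of p52, was at or below background: 11 of its 12 values lay between 4.37 and 5.14, and day 1 replicate 1 reached 5.55. Its groups overlapped in each comparison with intact, and its differences of 0.39 ± 0.22 at day 1, 0.053 ± 0.22 at day 3 and 0.24 ± 0.22 at day 7 are at the limit of what the arrays resolve. Rela, which encodes p65, the main activating subunit, was no member. It averaged 9.27, 9.41 and 9.42 at days 1, 3 and 7, against 9.26 on the intact arrays, with differences of 0.010 ± 0.20, 0.15 ± 0.20 and 0.16 ± 0.20.

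Nfkbia encodes IkBα, the inhibitor that is degraded first and resynthesised under NF-kB control. It was the steadiest member, with a spread over the 12 arrays of 0.11 (SD). The intact arrays had 10.46, 10.55 and 10.63, the day 1 arrays 10.69, 10.39 and 10.62, the day 3 arrays 10.56, 10.33 and 10.60, and the day 7 arrays 10.45, 10.51 and 10.53. Its groups overlapped throughout. The differences were 0.018 ± 0.15 at day 1, -0.050 ± 0.15 at day 3 and -0.049 ± 0.15 at day 7. The 95% interval of the fold change ran from 0.807 to 1.27 at day 1, from 0.770 to 1.21 at day 3 and from 0.770 to 1.21 at day 7, so changes of 1.5-fold in either direction lay outside it at each time.

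The other cytoplasmic inhibitors, IkBβ (Nfkbib) and IkBε (Nfkbie), were set apart by a single array. Nfkbib had 8.26, 8.38 and 8.44 on the intact arrays, 8.36, 6.24 and 8.62 at day 1, 7.82, 8.10 and 8.57 at day 3, and 8.65, 8.15 and 8.20 at day 7. Nfkbie had 6.57, 6.56 and 6.70 on the intact arrays, 6.60, 4.32 and 6.45 at day 1, 5.91, 6.32 and 6.49 at day 3, and 6.50, 6.77 and 6.64 at day 7. Of the day 1 values only those of replicate 2 were far from intact for either gene, and for Nfkbie the 3 day 3 arrays lay below the 3 intact arrays. At day 1 Nfkbib differed by -0.62 ± 0.48 and Nfkbie by -0.82 ± 0.45 (limma adjusted p = 0.696 and 0.612). Without day 1 replicate 2 these were 0.13 ± 0.23 and -0.080 ± 0.19. At day 3 Nfkbie differed by -0.37 ± 0.45, with an SE of 0.17 once that array was left out, and at day 7 by 0.029 ± 0.45. Nfkbib differed by -0.20 ± 0.48 at day 3 and by -0.027 ± 0.48 at day 7.

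Nfkbiz and Bcl3 encode nuclear proteins of the IkB family that work on p50 or p52 dimers at chromatin. IkBζ, the product of Nfkbiz, is induced by Toll-like receptor and IL-1 signals and is needed for secondary response genes such as Il6. Nfkbiz had 9.16, 9.22 and 9.14 on the intact arrays, 9.43, 8.72 and 9.16 at day 1, 9.03, 8.46 and 8.95 at day 3, and 9.09, 9.55 and 9.41 at day 7. The 3 day 3 arrays lay below all intact arrays and also below all day 7 arrays, while days 1 and 7 each overlapped intact. Nfkbiz differed from intact by -0.070 ± 0.22 at day 1, -0.36 ± 0.22 at day 3 and 0.18 ± 0.22 at day 7. Day 7 differed from day 3 by 0.54 ± 0.22, the lowest unadjusted p of a member between these days, with a limma adjusted p of 0.951. Bcl3 had 6.50, 6.46 and 6.26 on the intact arrays, 6.57, 3.75 and 6.88 at day 1, 6.08, 6.16 and 6.42 at day 3, and 6.40, 6.68 and 6.40 at day 7. Day 1 replicate 2 lay below background, while the other 2 day 1 arrays lay above the highest intact array. Bcl3 accordingly differed by -0.67 ± 0.59 at day 1 with all arrays and by 0.32 ± 0.18 without replicate 2. It differed by -0.19 ± 0.59 at day 3 and by 0.083 ± 0.59 at day 7.

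Tnfaip3 encodes A20, which removes activating ubiquitin chains from signalling proteins upstream of the kinase complex. It had 11.19, 11.15 and 11.21 on the intact arrays, 10.87, 10.68 and 11.01 at day 1, 10.91, 10.85 and 11.10 at day 3, and 11.11, 10.86 and 10.97 at day 7. All 9 arrays after resection, from 10.68 to 11.11, lay below all 3 intact arrays, from 11.15 to 11.21. Of the 9 members Tnfaip3 alone showed this, against 0.919% of all probe sets, and 0 members lay above intact on all 9 arrays, against 0.518%. The size was small: -0.33 ± 0.15 at day 1, -0.23 ± 0.15 at day 3 and -0.20 ± 0.15 at day 7, or 0.797, 0.853 and 0.870 of the intact level. None passed (limma adjusted p = 0.560, 1.00 and 1.00). At day 7 the difference was -0.071 without the 3 arrays that carried the labelling control dap, which left 1 array in that group. These 3 were day 3 replicate 1 and day 7 replicates 2 and 3, with dap signals of 6.88, 7.77 and 6.47. The other arrays, all intact and day 1 arrays among them, had 2.13 to 2.89. The part of this in the differences from intact was not tested.

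**Figure D2:**
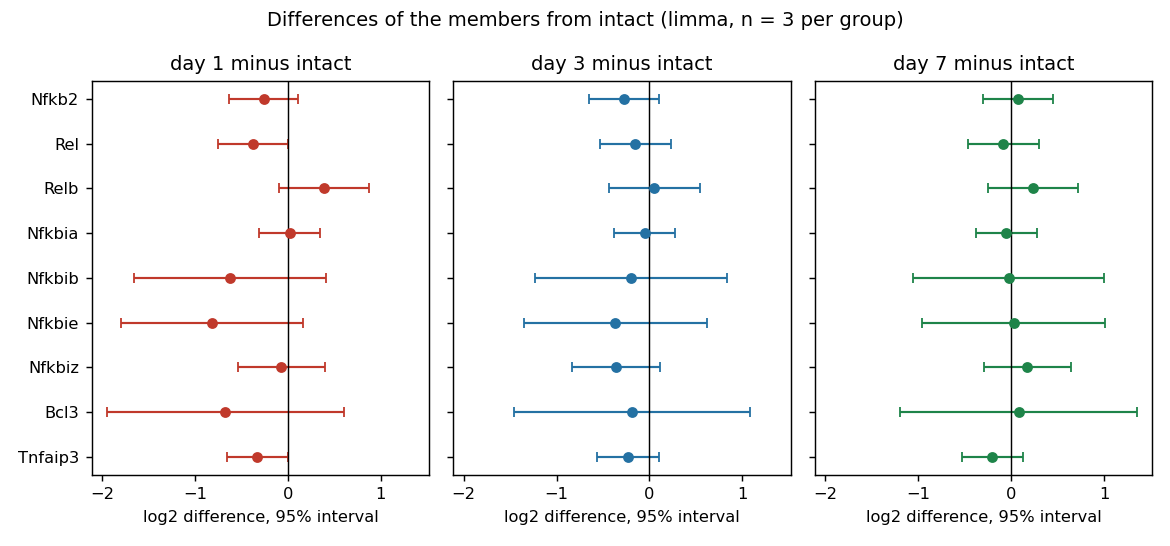
Log2 differences of each member at days 1, 3 and 7 minus intact (horizontal axes) with 95% intervals from limma (n = 3 per group, all 12 arrays in 1 fit). Nfkbia has narrow intervals around 0, and Nfkbib, Nfkbie and Bcl3 have wide intervals at every time. The estimates of Tnfaip3 lie below 0 at each time, from -0.33 to -0.20, with intervals that include 0.

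How far the data bound a change depended on the gene. The 95% interval lay inside 2-fold in either direction for 6 of 9 members at day 1, for 6 at day 3 and for 6 at day 7. These were Nfkb2, Rel, Relb, Nfkbia, Nfkbiz and Tnfaip3 at each time. Relb averaged below background in each group, so its interval bounds the signal and not the transcript. The other 3, Nfkbib, Nfkbie and Bcl3, had wide intervals at days 3 and 7 too, because 1 spread per gene was estimated over all 12 arrays. With day 1 replicate 2 left out, the interval lay inside 2-fold for 8 members at day 1, for 9 at day 3 and for 9 at day 7. The exception at day 1 was Relb, whose interval reached 2.03-fold.

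Groups that did not overlap were counted as a second description. At day 1 the 3 members Nfkb2, Rel and Tnfaip3 lay below intact on all arrays, where 8.94% of all probe sets did so, and 0 lay above, where 7.42% did. At day 3 the 3 members Nfkbie, Nfkbiz and Tnfaip3 lay below (6.68% of probe sets) and 0 above (7.19%). At day 7 Tnfaip3 lay below (8.15%) and 0 above (6.11%). Without day 1 replicate 2, Nfkb2, Rel and Tnfaip3 were still below at day 1 and Bcl3 was above, where 14.0% and 14.1% of probe sets did so.

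Day 1 replicate 2 moved the members unequally. Against the lower of the other 2 day 1 arrays it was lower by 2.81 for Bcl3, 2.13 for Nfkbie and 2.13 for Nfkbib, but by 0.43 for Nfkbiz, 0.37 for Nfkb2, 0.24 for Nfkbia and 0.19 for Tnfaip3, and it was higher by 0.27 for Rel and 0.081 for Relb. Among the 5371 probe sets whose intact mean was above background, the median difference from the lower of those arrays was -0.43. Of these probe sets 3.87% lay more than 2 log2 units below it, a limit set after the values were seen. The mean of the 9 members was 7.25 on this array, against 8.28 and 8.26 on the other day 1 arrays and 8.18 to 8.26 on the intact ones. This array also had the weakest separation of its controls, and the part of that in these values was not tested.

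**Figure D3:**
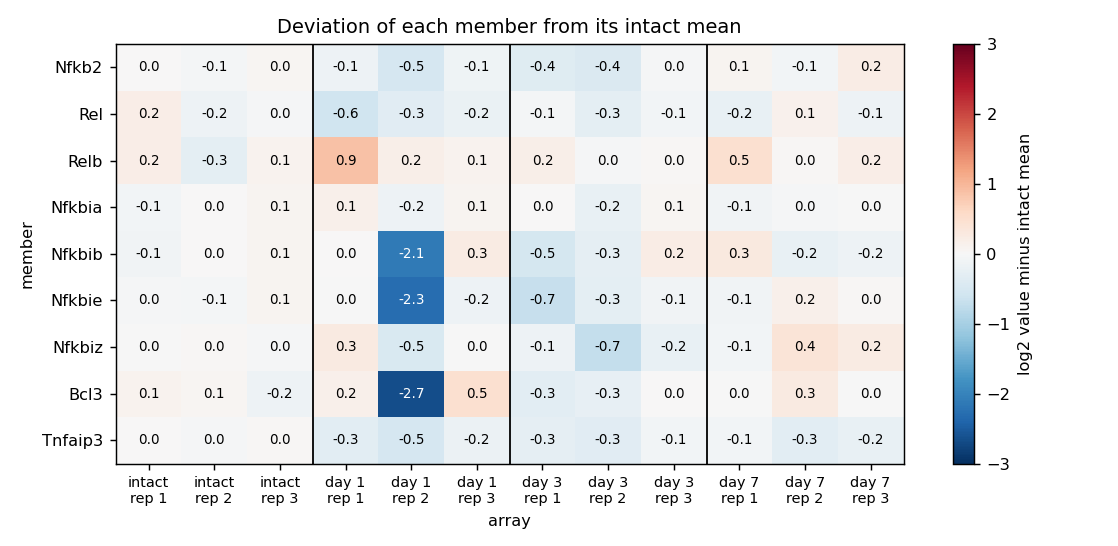
Each cell is the log2 value of a member (rows) on an array (columns) minus the member's mean over the 3 intact arrays, printed to 1 decimal. The strongest deviations are Bcl3, Nfkbie and Nfkbib on day 1 replicate 2, and the Tnfaip3 row is negative on all 9 arrays after resection.

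Between the days after resection 0 members passed: in limma 0% of probe sets were called between days 3 and 1, 0% between days 7 and 1, and 0% between days 7 and 3. Without adjustment the threshold of 0.05 was met by 0, 0 and 1 members (Nfkbiz) and by 9.60%, 6.74% and 5.12% of probe sets. All 9 members were higher at day 7 than at day 3 by 0.0010 to 0.54, with a median of 0.18. Over all probe sets, most of which were below background in every group, the median was -0.011. The groups did not overlap for Nfkbie and Nfkbiz, both higher at day 7, where 4.84% of probe sets were higher in this way, and for 0 members lower, where 5.69% were. Between days 7 and 1 Nfkb2 alone did not overlap, with a difference of 0.34 ± 0.17 (limma adjusted p = 0.750), where 4.55% of probe sets were higher and 4.66% lower.

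The genes around the members in the pathway were measured from lists of 92 genes, of which 86 had a probe set. In limma 0 of these 86 passed at any of the 3 days. The list of other subunits and inhibitors held Rela, Nfkbid and Nfkbil1, with medians of -0.16, -0.043 and 0.16 at days 1, 3 and 7. Among receptors and adaptors 13 of 22 were lower at day 1, 15 at day 3 and 9 at day 7, with medians of -0.068, -0.12 and 0.011. Cd40, the receptor through which T cells activate NF-kB, averaged 3.29 at day 1, against 4.57 on intact arrays, both below background. The smallest p at day 7 was that of Il1r1, the receptor of IL-1, with -0.83 ± 0.21 (limma adjusted p = 0.356), and it averaged 3.15 at day 7, against 3.98 on intact arrays, both below background. Tlr4, the receptor of bacterial lipopolysaccharide, followed with 0.50 ± 0.15 (limma adjusted p = 0.519). Of 10 kinases 5 were higher and 5 lower at day 1, 7 higher and 3 lower at day 3, and 6 higher and 4 lower at day 7, with medians of -0.033, 0.094 and 0.086. Ikbkb, the catalytic kinase of the classical branch, differed by -0.76 ± 0.25 at day 1 and Ikbke, a related kinase of antiviral signalling, by 0.95 ± 0.35 (limma adjusted p = 0.404 and 0.461). The intact mean of Ikbke, 4.56, was below background. Map3k14, the kinase of the non-canonical branch, differed by -0.53 ± 0.21 at day 1. Of the ubiquitin editors and other brakes 12 of 18 were lower at day 1, 11 at day 3 and 10 at day 7, with medians of -0.21, -0.11 and -0.088. Zfp36, which destabilises cytokine mRNAs, differed by -0.73 ± 0.21 at day 1, and N4bp1, an inhibitor of NF-kB signalling, by 0.53 ± 0.19. Cyld, a deubiquitinase, differed by 0.68 ± 0.27 at day 3, with an average of 5.87, against an intact mean of 5.19 that was below background.

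Target genes of NF-kB stood lower more often than higher. Of 33 measured, 24 were lower at day 1, 25 at day 3 and 25 at day 7, with medians of -0.31, -0.26 and -0.11. Groups did not overlap, in the lower direction, for 7 at day 1, 14 at day 3 and 6 at day 7, where 8.94%, 6.68% and 8.15% of all probe sets did so. In the higher direction they did not overlap for 0, 3 and 3, where 7.42%, 7.19% and 6.11% of all probe sets did so. Ccl5, a chemokine for T cells that lymphocytes also express, differed by -1.16 ± 0.28 at day 1, -1.38 ± 0.28 at day 3 and -1.64 ± 0.28 at day 7, and averaged below background at each of these days. Its limma adjusted p at day 7 was 0.140, the lowest of the list. Ier3, an early response gene, differed by -1.45 ± 0.31 at day 1 and -1.19 ± 0.31 at day 7, while Cxcl10, a chemokine also induced by interferon, differed by -1.44 ± 0.46 and Tnf by -0.74 ± 0.26 at day 3. Cd83 differed by -0.85 ± 0.27 at day 1. Birc3, which encodes a ubiquitin ligase of the pathway, went the other way at day 7, by 0.51 ± 0.19. The day 1 medians of these lists, except that of the kinases, changed sign without day 1 replicate 2, a setting chosen after seeing the data: the median was then 0.014 for the target genes, 0.13 for the ubiquitin editors and brakes, 0.084 for the receptors and adaptors, 0.12 for the other subunits and inhibitors and -0.034 for the kinases.

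**Figure D4:**
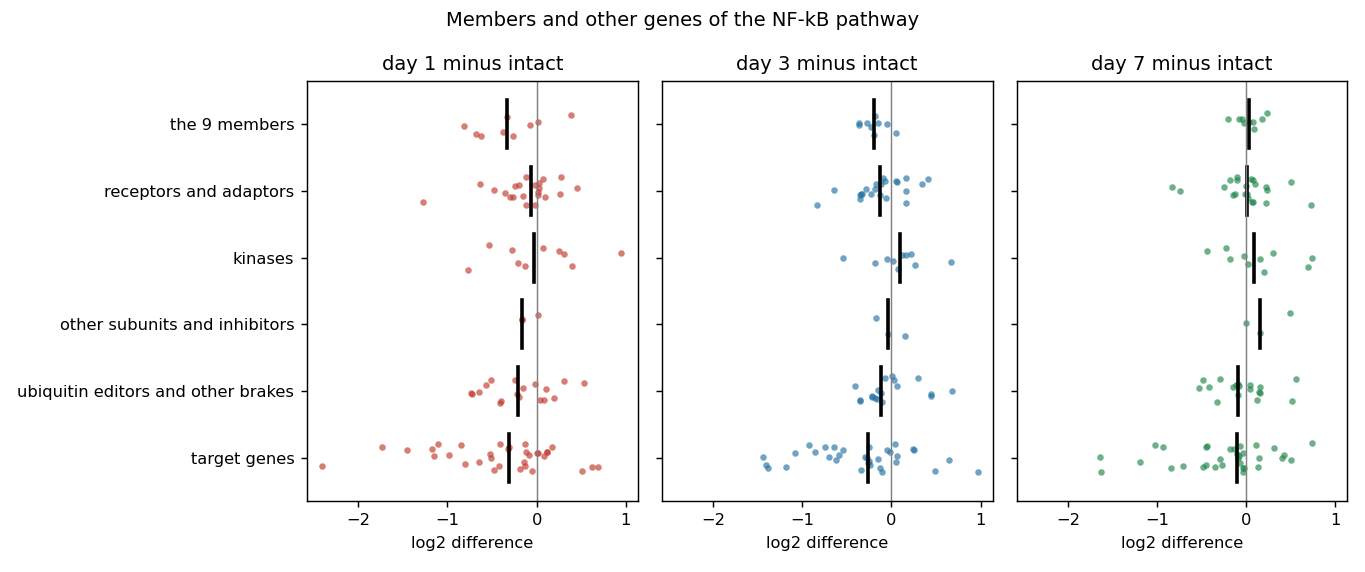
Log2 differences (horizontal axes) at days 1, 3 and 7 minus intact for the 9 members and for 5 lists of other pathway genes, each point 1 gene and each bar the median. The members have medians of -0.33, -0.20 and 0.029 and the target genes medians of -0.31, -0.26 and -0.11.

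Marker genes of other cells differed between the groups too. Of all probe sets 51.5%, 49.7% and 51.7% were lower than intact at days 1, 3 and 7. Of 14 neutrophil markers 11, 10 and 12 were higher at days 1, 3 and 7. The mean of the list lay between 6.76 and 7.59, 6.83 and 7.62, and 7.13 and 7.73 on the arrays of those days, against 6.40 to 6.78 on intact arrays. Epithelial markers were lower in 10 of 11 cases at each day, with list means of 4.66 to 6.01, 5.47 to 6.54 and 5.37 to 5.94, against 6.50 to 7.04. All 8 endothelial markers and all 9 fibroblast and smooth muscle markers were lower at each day. The only probe set called at day 3 was that of the fibroblast marker Col3a1 (limma adjusted p = 0.0135). Those called at day 7 included Col3a1 and the epithelial marker Sftpd (limma adjusted p = 0.0249 and 0.00965). Of 20 immediate early genes, which sorting and handling can induce along with NF-kB targets, 19, 18 and 17 were lower, with list means of 7.55 to 8.04, 8.14 to 8.35 and 8.21 to 8.43, against 8.49 to 8.66. Eosinophils also carry Siglec-F. Of 6 genes listed as eosinophil markers 2, 3 and 4 were higher at days 1, 3 and 7, with list means of 4.28 to 5.30, 4.59 to 5.57 and 5.30 to 6.30, against 4.62 to 5.38. These counts and means include Cd177, which neutrophils also express and which was higher at each day, by 0.77, 0.49 and 0.30. The other genes of the list, named after their values were seen, did not move alike. At days 3 and 7 Ccr3 differed by 2.14 and 2.71, Il5ra by 1.57 and 1.24, and Ear6 by -0.38 and 0.77. At the same days Prg2 differed by -1.55 and -0.27 and Epx by -1.53 and -0.27. For T and NK cells 8 of 12 markers were lower at each day, and 10 of the 12 were below background even on the intact arrays. Of 9 monocyte and interstitial macrophage markers 7, 5 and 6 were lower, with list means of 4.11 to 5.66, 4.84 to 5.12 and 4.43 to 5.26, against 5.24 to 6.08. In that list Ly6c2, named after its values were seen, differed by -1.92 ± 0.44, -1.91 ± 0.44 and -1.98 ± 0.44, with groups that did not overlap at any of the 3 days. Higher were 2, 4 and 3 of the 9. Among them at each day were C1qa, by 0.20, 0.29 and 0.019, and C1qb, by 0.017, 0.92 and 0.54. Of 9 dendritic cell markers 7, 8 and 8 were lower, and of 5 B cell markers 5, 4 and 5, with 8 and 4 of them below background on the intact arrays. NF-kB genes are used by all of these cell types, and the part of such RNA in the members' values was not tested.

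Some genes outside the pathway had profiles like those of the members. Likeness was the root mean square difference over the 12 arrays after each gene was centred on its own mean, among genes with a mean of at least 5. Closest to the mean of the 9 members, which dropped on day 1 replicate 2, were Stk40 at 0.099, Gapdh at 0.11, Elovl5 at 0.11, Lasp1 at 0.12 and Dusp5 at 0.12 (log2 units). Nfkbia varied so little (SD 0.11) that its nearest gene, Sla at 0.099, was hardly closer to it than a flat profile would be. Nearest to the other members were Eef1a1 for Tnfaip3 (0.095), Kdm6b for Rel (0.14), Plek for Nfkbiz (0.17), Atxn2l for Nfkb2 (0.12), Pip5k1a for Nfkbib (0.15), Ern1 for Nfkbie (0.17), Tmem87a for Bcl3 (0.24) and Myg1 for Relb (0.18). Between members the smallest differences were those of Nfkb2 with Tnfaip3 (0.15) and of Nfkbia with Tnfaip3 (0.15), and the widest was that of Relb with Bcl3 (0.81). Tnfaip3 itself varied little (SD 0.16), so a flat profile would be about as close to it. Nfkbib, Nfkbie and Bcl3, which share the drop on day 1 replicate 2, differed from each other by 0.22 to 0.27, at SDs of 0.65, 0.67 and 0.80.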

How the data were processed

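Values were deposited by the authors on a log2 scale, 1 per probe set and array. The submitters' processing notes name RMA and the Transcriptome Analysis Console, with no version. RMA corrects background, normalizes quantiles and summarises probes. The log2 scale was read from the values, and the genome build is not given in the sources used here. Of 28846 probe sets 6640 controls were left out. The other 22206 were fitted in limma 3.58.1 (R 4.3.3), 1 linear model over 12 arrays with group as the only term and default moderation. All p-values are two-sided and were adjusted by Benjamini-Hochberg over the 22206 probe sets, with a threshold of 0.05. An exact permutation test of 3 against 3 arrays cannot go below 0.10. Intervals are 95% intervals of that fit. The procedure was tested on simulated data.

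The members and lists were chosen with earlier results of these data known. All members were named. From each pathway list at most 3 genes per comparison with the smallest unadjusted p were named, and Rela. Lists were described by counts and medians. Alternatives were other moderation, a filter on dim probe sets, median centring, quantile normalization, only the compared groups, the replicate number as a block, array weights, averaging the probe sets of a gene (every member has 1, so values were the same), arrays of weak controls or with the labelling control left out, and each array left out in turn. Leaving day 1 replicate 2 out of the pathway lists was chosen after seeing the data. Deviations of arrays with the same replicate number correlated between -0.24 and 0.26. Arrays with different numbers were not compared in this way, so these values do not decide whether the numbers pair the samples.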

Additional observations from a re-analysis of the deposited data

How the results depend on the processing

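In 153 recalculated counts, over 6 comparisons and the F test, 0 of the 9 members passed, whatever the setting. The median of the members at day 1 was -0.33, and 0.11 without the 3 arrays of weak control separation. It ran from -0.41 to 0.11 when each array was left out in turn, the upper end without day 1 replicate 2. At day 3 the same range was -0.30 to -0.16, and at day 7 -0.0089 to 0.074. With the replicate block the medians were -0.33, -0.20 and 0.029. They could not change, because every group holds each replicate number. The replicate block changed no call of a member. Among recalculated differences of single members 581 moved by less than the spread within groups and 10 by more. Many of the 581 could not move, because the setting keeps a difference of group means as it is. Such settings were other moderation, the filter on dim probe sets, only the compared groups, the block and averaging probe sets. Leaving out an array of a group not compared is another. Without day 1 replicate 2, or without the 3 weakly separating arrays, Nfkbib stood at 0.13, Nfkbie at -0.080 and Bcl3 at 0.32 at day 1. Tnfaip3 stood at -0.071 at day 7 without the 3 arrays that carried the labelling control. Quantile normalization gave -0.067 for Nfkb2, 0.15 for Nfkbia and -0.20 for Tnfaip3 at day 1. Median centring changed the sign of 2 member differences, and quantile normalization of 2. Tnfaip3 stayed below 0 in all 22 alternatives at each day, many of which could not move its difference. Relb was removed by the filter on dim probe sets. The count of all probe sets called was 0 at day 1, 1 at day 3 and 4 at day 7. Without the 3 weakly separating arrays it was 71, 252 and 280, with array weights 43, 298 and 402, and with only the groups compared 48 at day 7. Intensity trend with robust prior gave 4 at day 3 and 6 at day 7, quantile normalization 4 at day 3, the block 0 at day 3 and 8 at day 7, the filter on dim probe sets 0 at each day, and leaving out single arrays 0 to 12, 0 to 7 and 0 to 18. The F test called 2, and 0 to 360 under the alternatives. The cause of these changes was not tested. Relb lay at background, which limits its values.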
